A study of Mus musculus with 8 samples.

Results

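The genes described here are 50 that build, check and export proteins in the endoplasmic reticulum (ER), or that respond when the ER is overloaded. They were taken by name from a written list, without using their values, and all 50 were among the 17921 genes of the single-cell count table of mouse lung grafts. Each level is given as CPM: the unique molecular identifiers (UMIs, 1 per captured transcript) of a gene summed over the cells of 1 type in 1 mouse and divided by all UMIs of that sum, with immunoglobulin (Ig) genes left out, and scaled to 1000000. A level is therefore a share of the other transcripts, and it also moves when those transcripts do.

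The study placed a left lung from a donor into a male C57BL/6 (B6) recipient by orthotopic transplantation, gave no immunosuppression to any mouse, and took the graft 1 month later. In the B6→B6 group (n = 5 mice) the donor was also B6, and these grafts serve as non-rejecting controls. In the HLA→B6 group (n = 3 mice) the donor was a B6 mouse with the human transgene Tg(HLA-A2.1)1Enge/J, and these grafts develop bronchiolitis obliterans syndrome (BOS), the airway form of chronic rejection. Each graft gave 1 droplet library of transcript 3′ ends, so the mouse is the replicate, and p-values cover the spread between these mice. The labels do not tell whether a cell came from the donor or from the recipient.

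A secreted or membrane protein enters the ER through the Sec61 channel, loses its signal peptide, receives N-linked sugars and is folded by chaperones and disulfide isomerases before it leaves for the Golgi. Proteins that fail to fold are handed back to the cytosol for destruction, a route called ER-associated degradation (ERAD). When unfolded protein builds up, the sensors IRE1α (Ern1), ATF6 and PERK start the unfolded protein response, in which IRE1α splices the mRNA of the transcription factor XBP1 and PERK signalling raises translation of ATF4 and, with prolonged stress, its target CHOP (Ddit3). Plasma cells (PCs), the Ig-secreting end stage of the B cell lineage, need XBP1 to enlarge their ER.

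The promoters of several of the genes carry the short elements through which ATF6 and XBP1 act, and these are shown first. Genes of this response were put on the list by name, so the elements describe them and are no separate link to it. The windows searched run from 250 bases before to 50 after each RefSeq transcript start (build GRCm38.p6), and 38 of the 50 genes had a window in the table used. The ER stress response element (ERSE), read here as CCAAT, 9 bases of any kind and CCACG on either strand, lay in the windows of 7 of these 38 genes (18.4%), against 0.137% of all 27025 genes with a window. The related ERSE-II, ATTGG, 1 base of any kind and CCACG, lay in 2 of 38 (5.26%) against 0.0444%. The 8 copies of ERSE in the 7 genes and the ERSE-II of Herpud1 are printed 5′ to 3′ along the strand of the gene, with the element in capitals and 20 bases on each side.
Hspa5 (chr2:34772005-34772063, + strand): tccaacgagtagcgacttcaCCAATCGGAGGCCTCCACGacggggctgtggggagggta
Hsp90b1, farther copy (chr10:86705618-86705676, - strand): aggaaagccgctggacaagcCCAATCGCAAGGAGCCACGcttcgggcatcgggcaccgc
Hsp90b1, nearer copy (chr10:86705513-86705571, - strand): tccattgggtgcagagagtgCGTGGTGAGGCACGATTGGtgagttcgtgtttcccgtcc
Creld2 (chr15:88819500-88819558, + strand): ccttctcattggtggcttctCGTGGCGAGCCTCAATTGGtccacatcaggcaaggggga
Dnajc3 (chr14:118937807-118937865, + strand): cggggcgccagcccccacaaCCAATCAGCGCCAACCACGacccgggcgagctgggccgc
Pdia6 (chr12:17266471-17266529, + strand): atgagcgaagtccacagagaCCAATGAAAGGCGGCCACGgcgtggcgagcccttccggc
Calr (chr8:84847055-84847113, - strand): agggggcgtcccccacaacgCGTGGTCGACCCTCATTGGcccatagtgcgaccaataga
Canx (chr11:50325780-50325838, - strand): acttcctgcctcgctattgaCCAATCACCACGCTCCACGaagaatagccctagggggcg
Herpud1, ERSE-II (chr8:94386357-94386407, + strand): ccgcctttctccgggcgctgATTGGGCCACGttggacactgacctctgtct

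The element of Hspa5 began at position -65 from the transcript start and that of Pdia6 at -98, whereas the farther Hsp90b1 copy began at -212. In Calr, Creld2 and the nearer Hsp90b1 copy the element was on the opposite strand, so that it reads CGTGG first and ATTGG last. The XBP1 site TGACGTGG (UPRE) lay in 2 of the 38 genes, Txndc5 and Txndc11 (5.26% against 0.714% of all genes), and the ATF4 core TGATGNAA lay in 2, Herpud1 and Txndc5 (5.26% against 4.51%). In all, 11 of 38 genes (28.9%) held an ERSE, ERSE-II or UPRE, against 0.884% of genes, and a match of letters is a description of sequence, not of binding.

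The table held 20778 cells, between 868 and 6544 per mouse, with a median of 1356 to 1948 UMIs per cell. Some cell barcodes occurred in more than 1 library, most often in B6→B6 2 and HLA→B6 2 (160 barcodes) and in B6→B6 1 and 2 (112), and leaving out the cells concerned removed 793 cells (3.82%). PCs were few and unequally spread, with 7, 7, 7, 1 and 0 in B6→B6 1 to 5 and 121, 27 and 2 in HLA→B6 1 to 3. The PC sums of B6→B6 1 to 3 held only 1814, 9669 and 5072 UMIs outside the Ig genes, so that 3 UMIs already equal 1654, 310 and 591 CPM there, whereas HLA→B6 1 and 2 held 367553 and 89555. Of the PCs, 6, 6 and 1 of 7 in B6→B6 1 to 3 carried such a barcode, against 3 of 121 and 3 of 27 in HLA→B6 1 and 2, and both PCs of HLA→B6 3 were marked as doublets. PC values are therefore given for 5 mice, and those of HLA→B6 1 and 2, the mice with at least 10 PCs, are also given alone. The label PC fitted its markers: 7 of 7 PC markers were detected and summed to between 81950 and 249664 CPM, most of it Jchain, against 404 to 1056 CPM in B cells, although Xbp1 and Mzb1 are on both that list and the list of 50. T cell markers summed to at most 180 CPM in PCs. A list of genes induced by tissue dissociation (Fos, Egr1 and others) summed to 531 to 3383 CPM in PCs and 828 to 3383 CPM in B cells.

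PCs stood apart from every other cell type in the summed level of the 50 genes. The 50 genes took 6.56%, 3.64% and 4.14% of the non-Ig UMIs of PCs in B6→B6 1 to 3 and 7.52% and 6.03% in HLA→B6 1 and 2 (5.58% ± 1.64, SD, n = 5 mice). In B cells the share was 0.652% ± 0.0889 (n = 8), in T cells 0.552% ± 0.0408 (n = 8), in natural killer (NK) cells 0.775% ± 0.0859 (n = 8) and in alveolar macrophages 0.937% ± 0.125 (n = 8). The lowest PC value, 3.64%, was thus above the highest value of any other type, 1.18% in the myeloid cells of HLA→B6 1. In that sum Ig took 2.59% of all UMIs, against 0.0294% to 0.197% in the myeloid cells of the other mice. The part of PC transcripts in the 1.18% was not tested. Below PCs the order was alveolar macrophages, myeloid cells (0.863% ± 0.170, n = 8), monocytes (0.836% ± 0.0362, n = 8), NK cells, structural cells (0.709% ± 0.261, n = 8), B cells, T cells, mast cells (0.498% ± 0.0963, n = 3) and leukocytes (0.297% ± 0.0433, n = 7), and neighbours in that order overlapped between mice except for mast cells and leukocytes. The authors' types were drawn from these same counts, so a difference between types is described here and not tested.

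**Figure D1:**
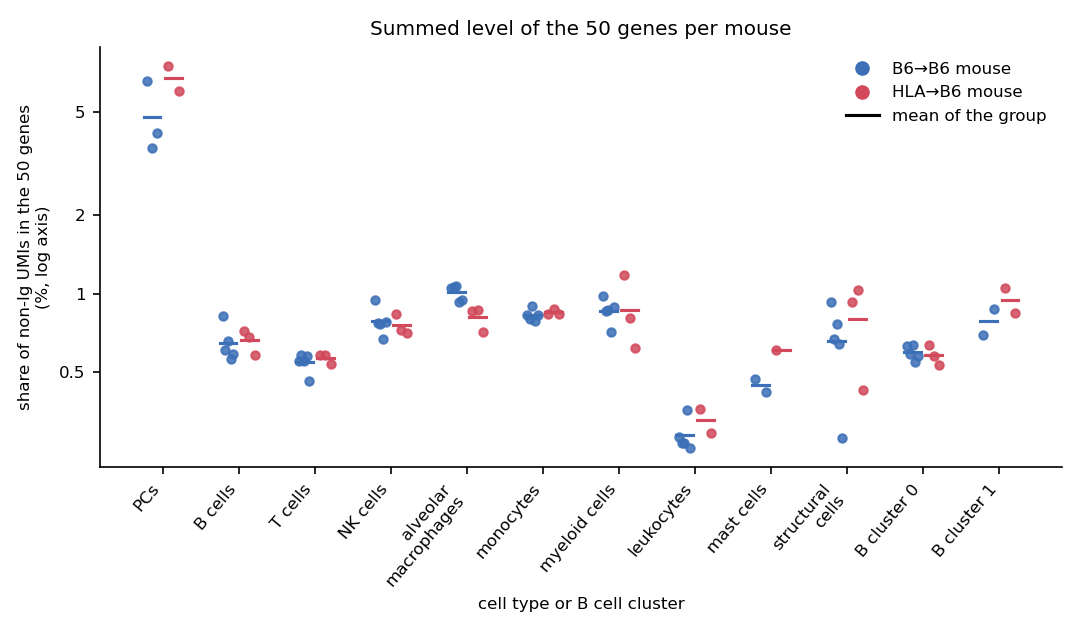
Share of non-Ig UMIs taken by the 50 genes (percent, log axis) in each authors' cell type and in B cell clusters 0 and 1, 1 point per mouse (blue B6→B6, red HLA→B6) and a line at the mean of each group. PCs lie between 3.64% and 7.52%, above every point of the other types. In alveolar macrophages the 3 HLA→B6 mice lie below the 5 B6→B6 mice. On this scale of library totals the median of all genes in these cells also fell (log2 fold change -0.26).

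The cells labelled leukocytes, lowest in the summed level, had neutrophil markers (S100a8, S100a9 and Retnlg) summing to 129150 to 222870 CPM and a median of only 678.5 UMIs per cell. The structural cells held 322 red blood cells by the authors' own sub-labels, and the hemoglobin transcripts Hbb-bs and Hba-a1 ranged from 50579 to 524858 CPM between mice, the highest in B6→B6 5, where the 50 genes took 0.279%. Within structural cluster 0, which the authors labelled MHC II+ endothelial cells, hemoglobin was at most 3954 CPM and the 50 genes took 0.988% ± 0.124 (n = 8). In the red blood cell cluster they took 0.130% ± 0.0552 (n = 6).

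Gene by gene, PCs had the highest mean of all types for 47 of the 50 genes, as they did for 10.5% of the 15502 genes with at least 10 UMIs over the types. For 22 genes the lowest mouse of the highest type, in each case PCs, was above every mouse of the next type, among them Hspa5, Hsp90b1, Creld2, Manf, Pdia4, Ssr4, Sec11c, Edem1, Xbp1 and Mzb1. Of the 15502 genes, 46 (0.297%) met the same criterion with PCs on top. The type next in order was most often the alveolar macrophage (12 genes) or the myeloid cell (11 genes). The 3 exceptions were Canx and Edem3, highest in alveolar macrophages, and Ddit3, highest in leukocytes. Canx was at 440 ± 131 CPM in alveolar macrophages (n = 8) and 257 ± 227 CPM in PCs (n = 5), and Edem3 at 14.3 ± 8.0 CPM in alveolar macrophages and 8.71 ± 5.01 CPM in structural cells, so neither order was larger than the spread. Ddit3 in leukocytes was at 250, 98.2, 226, 293 and 0 CPM in B6→B6 1 to 5 and 152 and 28.3 CPM in HLA→B6 1 and 2, from 0 to 95 UMIs a mouse. The dissociation-induced transcripts summed to 4749 to 15598 CPM in these cells and to 7661 to 19686 CPM in mast cells, against at most 6375 CPM in any other type.

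**Figure D2:**
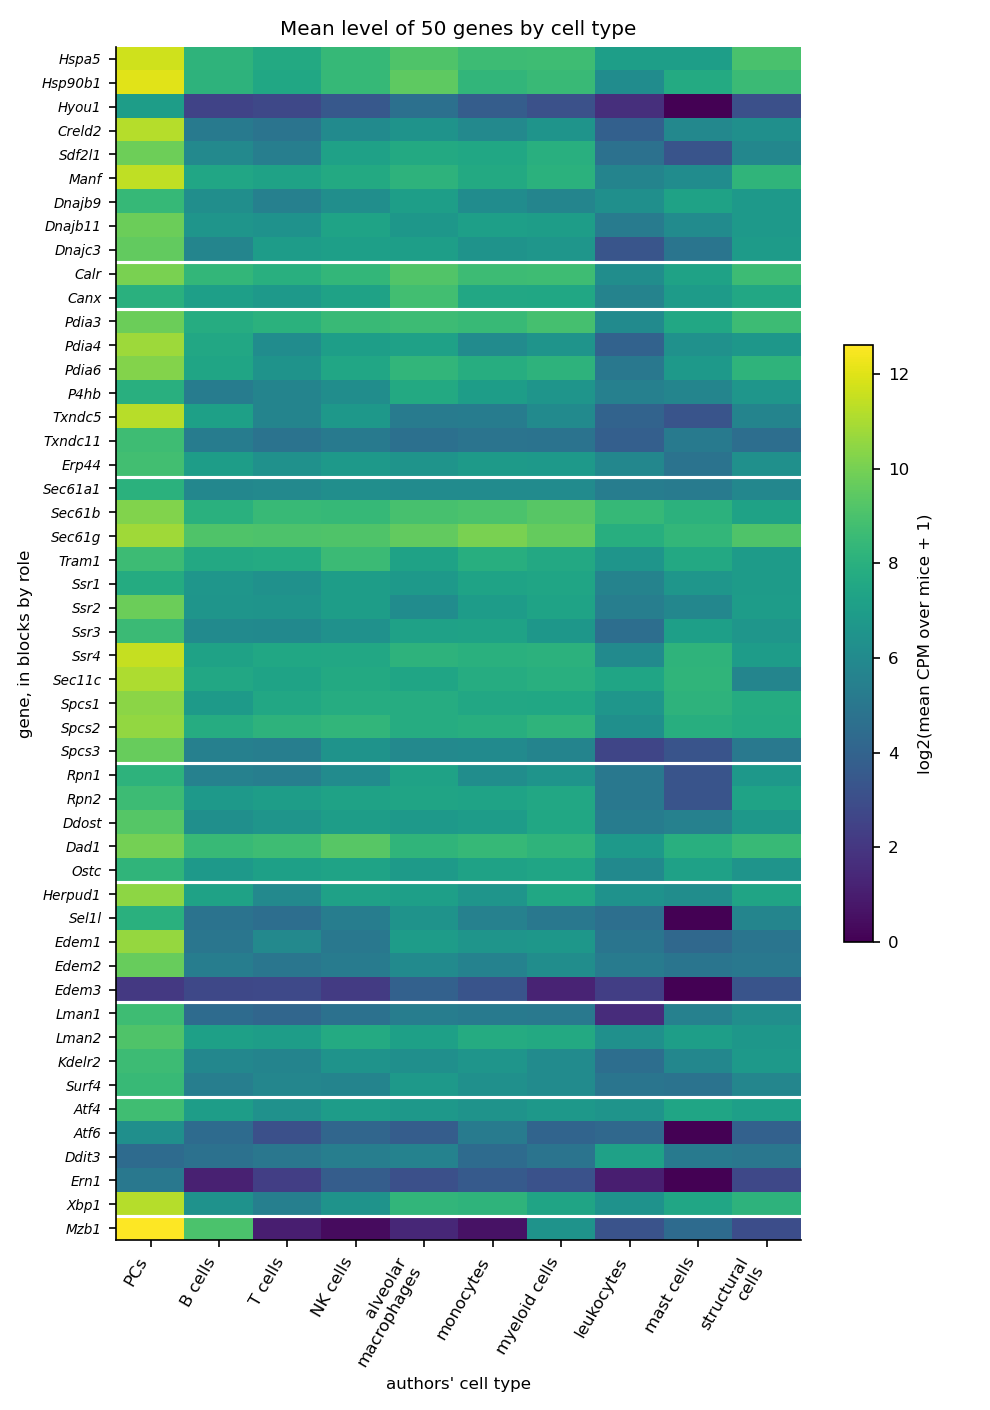
Mean level over mice of each of the 50 genes (rows, in blocks by role) in 10 of the authors' cell types (columns), colored by log2(mean CPM + 1). The PC column is the brightest for 47 genes, and Canx, Edem3 and Ddit3 are the rows where another column is brighter.

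To relate PCs to the cells they descend from, each gene was compared between PCs and B cells of the same mouse. The log2 ratio of the summed shares was 2.99, 2.59, 2.66, 3.38 and 3.15 in B6→B6 1 to 3 and HLA→B6 1 and 2 (mean 2.95). This value rests on leaving Ig out: with Ig kept in the total the mean was 1.41, and 18 of the 50 genes were higher in PCs in all 5 mice. The share of all genes was not counted with Ig kept, so these 18 cannot be set against genes at large. With Ig left out, 30 of the 50 genes (60%) were higher in PCs in all 5 mice and none was lower in all 5. Of the 9473 genes with at least 10 UMIs, 1.40% were higher and 25.4% lower in every mouse. In HLA→B6 1 and 2 alone, 49 of 50 (98%) were higher in both, against 23.8% of 8615 genes. The median log2 ratio of the 50 was 3.15 and 2.92 in these mice, while that of all genes was -0.33 and -0.30. When cells with a shared barcode were left out, 3 mice kept enough PCs and 42 of 50 genes were higher in every one of them, against 5.92% of 9089 genes.

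**Figure D3:**
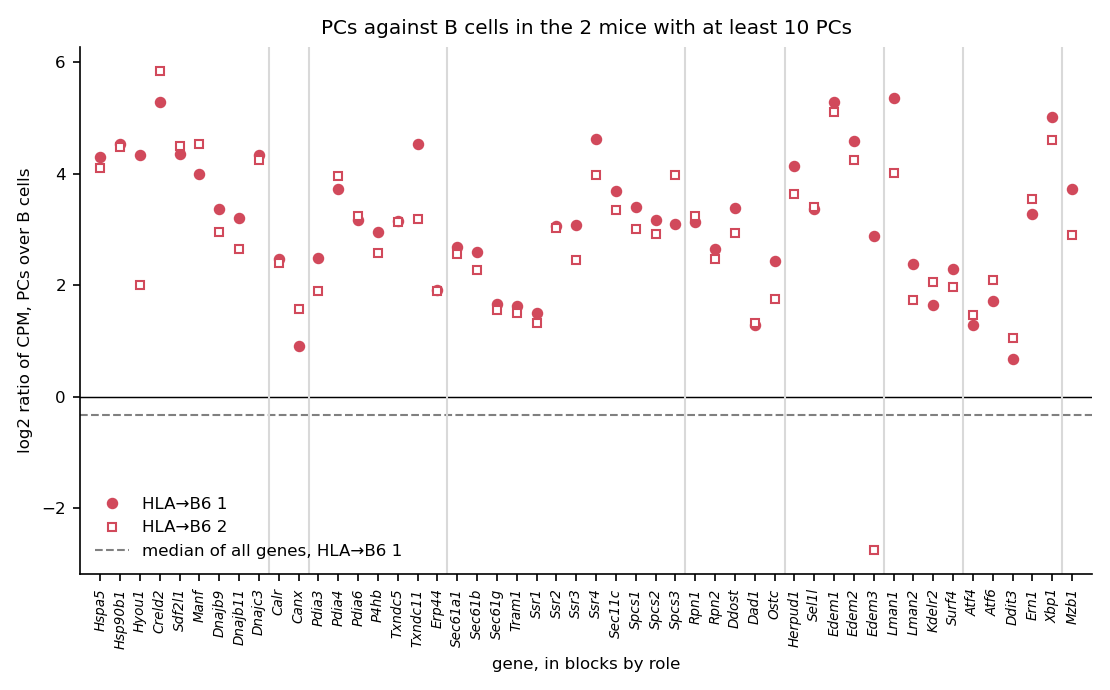
Log2 ratio of CPM in PCs over B cells for each of the 50 genes, in blocks by role, in HLA→B6 1 (filled circles) and HLA→B6 2 (open squares), with the median of all genes in HLA→B6 1 as a dashed line. All points lie above 0 except Edem3 in HLA→B6 2.

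Chaperones of the ER lumen and their partners were far higher in PCs. Hspa5 encodes BiP, the HSP70 of the ER, which holds unfolded chains and keeps the stress sensors inactive. Its level in PCs was 4410, 1551 and 2169 CPM in B6→B6 1 to 3 and 4731 and 3908 CPM in HLA→B6 1 and 2, against 593, 218, 270, 241 and 226 CPM in the B cells of the same mice. The groups did not overlap, and the mean level was 10.8-fold higher in PCs (3354 ± 1412 against 310 ± 160 CPM, n = 5). Hsp90b1, which encodes the HSP90 of the ER (GRP94), was at 2756, 2068, 4140, 6312 and 5996 CPM in PCs and at 551, 218, 273, 274 and 269 CPM in B cells, a 13.4-fold higher mean. Creld2, an ER stress-inducible isomerase-like protein, had the highest log2 ratio of the 50, with 3859, 1862, 1183, 2182 and 2557 CPM in PCs and 15.5 to 55.0 CPM in B cells (63.6-fold). Manf, a secreted factor that is retained in the ER with BiP, was at 591 to 6064 CPM in PCs and 115 to 265 CPM in B cells (15.8-fold). Sdf2l1, which works with ER HSP40 proteins, reached 1404 and 1574 CPM in HLA→B6 1 and 2 against 67.7 and 68.9 CPM in their B cells, but had no UMI in the PCs of B6→B6 1, where a count of 0 allows up to 1654 CPM. Dnajb9, an ER HSP40 that restrains IRE1α, was the lowest of this group at 4.54-fold, with 677 and 569 CPM in PCs of HLA→B6 1 and 2 against 64.9 and 72.1 CPM.

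The lectin chaperones, which bind sugar-tagged folding intermediates, differed from each other. Calr (calreticulin, soluble in the lumen) was at 1779 and 1552 CPM in the PCs of HLA→B6 1 and 2 against 320 and 293 CPM in B cells, and in the 5 mice its mean was 3.06-fold higher. Canx (calnexin, its membrane-bound relative) was at 551, 103, 0, 207 and 424 CPM in PCs and at 180, 131, 168, 110 and 143 CPM in B cells, so the groups overlapped and only 3 of 5 mice were higher in PCs. In HLA→B6 1 and 2 the log2 ratio of Canx was 0.90 and 1.56. Both genes carry an ERSE in their promoter window (above). The 9 genes with an ERSE or ERSE-II ranged from 0.81 to 5.99 in log2 fold of mean CPM (median 3.16). The median was 2.71 in the 29 genes with a window and neither element, and 3.30 in the 12 genes without a window. The part of the elements in these levels was not tested.

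The oxidoreductases make and rearrange disulfide bonds, of which Ig chains hold many. All 7 were higher in PCs in HLA→B6 1 and 2, and 5 were higher in all 5 mice. Pdia4 was at 2840 and 2702 CPM in the PCs of HLA→B6 1 and 2 against 214 and 173 CPM in B cells. Txndc5 had the highest mean log2 ratio of the group, at 2205, 2172 and 5323 CPM in PCs of B6→B6 1 to 3 and 1320 and 1295 CPM in HLA→B6 1 and 2, all above the 118 to 212 CPM of B cells. P4hb, which encodes the founding protein disulfide isomerase, had the lowest mean log2 ratio (1.39), which rests on its single 0, with 346 and 246 CPM in HLA→B6 1 and 2 against 43.7 and 40.1 CPM and no UMI in B6→B6 3. By fold of mean CPM Erp44, which retains other proteins in the early secretory pathway, was the lowest of the group (3.13-fold, against 7.2-fold for P4hb), and its log2 ratio was 1.91 and 1.89 in HLA→B6 1 and 2.

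Of the 12 genes for entry into the ER and removal of the signal peptide, 9 were higher in PCs in all 5 mice. Ssr4, the δ subunit of the translocon-associated protein complex, was at 2205, 1138, 3155, 4846 and 2903 CPM in PCs and 124 to 196 CPM in B cells (17.3-fold). Sec11c, a catalytic subunit of signal peptidase, was at 1183 to 3308 CPM in PCs against 156 to 209 CPM (11.8-fold), and Spcs3, a noncatalytic subunit of the same enzyme, at 582 to 1654 against 31.8 to 67.7 CPM (16.2-fold). Sec61b, the β subunit of the channel, was at 551, 1034, 986, 1948 and 1474 CPM against 201 to 323 CPM (4.66-fold). Each of these 4 separated PCs from B cells without overlap. Tram1, a membrane protein beside the channel, had the lowest ratio of the group, with 0, 310, 394, 726 and 547 CPM in PCs against 192 to 236 CPM in B cells.

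Subunits of the oligosaccharyltransferase, which attaches N-linked sugars, were 2.59-fold (Ostc) to 7.87-fold (Ddost) higher in mean. Ddost was at 892 and 525 CPM in PCs of HLA→B6 1 and 2 against 84.6 and 67.3 CPM in B cells, while Dad1 was at 884 and 793 CPM against 361 and 316 CPM. In ERAD, Edem1, which marks misfolded glycoproteins for removal, was at 2756, 517, 1380, 1891 and 1362 CPM in PCs and 31.1 to 48.0 CPM in B cells (43.3-fold). Herpud1, which organizes the retrotranslocation complex, reached 2827 and 2166 CPM in HLA→B6 1 and 2 against 161 and 173 CPM. Edem3, a relative of Edem1, showed no such difference: it had 6 UMIs in the PCs of HLA→B6 1 and 0 in the other 4 mice, and its level in B cells was at most 8.01 CPM. All 4 genes for transport between ER and Golgi were higher in PCs in all 5 mice, from Lman2 (394 to 740 against 127 to 191 CPM) to Lman1, the cargo receptor ERGIC-53 (197 to 618 against 9.48 to 31.8 CPM, 20.7-fold).

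The sensors and transcription factors split. Xbp1 was at 1103, 3310, 1380, 3602 and 2546 CPM in PCs and 148, 46.6, 63.2, 110 and 104 CPM in B cells (25.3-fold), without overlap. These counts do not separate spliced from unspliced Xbp1 mRNA. Ern1, the IRE1α gene, was sparse, with 21.8 and 33.5 CPM in PCs of HLA→B6 1 and 2 against 1.41 and 1.60 CPM in their B cells. Atf6 was at 89.8 and 100 CPM against 26.8 and 22.4 CPM, and Atf4 at 245 and 301 CPM against 100 and 109 CPM in the same mice. Ddit3, the CHOP gene, was at 57.1 and 44.7 CPM (21 and 4 UMIs) against 35.3 and 20.8 CPM, and no UMI of it was found in the PCs of B6→B6 1 to 3. Its log2 ratio, 0.68 and 1.05, was thus near the low end of the 50 genes. Mzb1, a BiP-associated cofactor of IgM assembly, was at 9372, 4447, 2957, 8886 and 5550 CPM in PCs and 462 to 747 CPM in B cells (10.5-fold), and at a mean of 0.305 CPM in NK cells.

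Lists of other genes around this pathway were compared in the same way, PCs over B cells, by the median log2 ratio in HLA→B6 1 and 2, whose PC sums are deep enough for low genes, and by the median over genes of the mean log2 ratio of all 5 mice. In the 5 mice 1 UMI equals up to 551 CPM in PCs, and the median over the 5 mice was below both deep mice for each list. The 50 genes had 2.2 over the 5 mice, and all genes with at least 10 UMIs had -1.54. The other ERAD genes had 2.92 and 2.13 in HLA→B6 1 and 2 and 1.02 over the 5 mice (12 genes), with Selenok at 1785 against 234 CPM and Ube2j1, an ERAD ubiquitin-conjugating enzyme, at 450 against 59.2 CPM in mean. The redox and folding list had 2.19 and 1.99 in the deep mice and 0.81 over all (11 genes), with Prdx4, an ER peroxiredoxin, at 804 against 18.1 CPM. For the COPII coat and ER exit genes the values were 2.08 and 2.06, and 0.44 over all (15 genes), with Sar1a at 601 against 82.5 CPM. Other translocon, signal recognition and glycosylation genes had 1.73 and 1.81, and 0.21 over all (17 genes).

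For 2 lists tied to stress signalling the sign turned with the mice and with the measure used. Targets of the integrated stress response (the branch through ATF4) had 1.96 and 1.77 in HLA→B6 1 and 2 but -0.41 over the 5 mice. By log2 fold of mean CPM over the same 5 mice their median was 1.22. Stress transducers such as PERK (Eif2ak3) had 1.22 and 0.87 in the deep mice but -1.44 over all. Their median by log2 fold of mean CPM was 0.06. Absent UMIs in the shallow PC sums lower the mean log2 ratio more than the mean CPM. None of 14 targets and none of 7 transducers was higher in all 5 mice, which beside 1.40% of all genes does not set them apart. In HLA→B6 1 and 2 alone, 9 of 12 targets and 5 of 6 transducers were higher in both, against 23.8% of 8615 genes. Genes at large had a median of -1.54 over the 5 mice, so a value below 0 there is not a low one. Cytosolic heat shock genes had -1.30 and 0.10 in the deep mice and -1.38 over all (8 genes), and Dnaja1 was lower in PCs in all 5 mice.

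Single PCs varied widely. In HLA→B6 1 the share of non-Ig UMIs taken by the 50 genes ran from 2.10% to 25.2% over 121 cells, with a median of 6.36%, while Ig took from 13.1% to 89.0% of all UMIs. Across these 121 cells the rank correlation of the Ig share with the share of the 50 genes was -0.029 (Spearman's rho), and over the 27 PCs of HLA→B6 2 it was 0.21. Cells of 1 library share its preparation and its free RNA, so these values describe the cells only.

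The authors divided B cells and PCs into 4 clusters, of which cluster 0 holds most B cells and cluster 2 most PCs (164 of 172). The 50 genes took 0.589% ± 0.0405 (n = 8) of non-Ig UMIs in cluster 0, 0.864% ± 0.144 (n = 4) in cluster 1, 0.858% ± 0.0604 (n = 3) in cluster 3 and 5.21% ± 2.21 (n = 5) in cluster 2. In the 4 mice with at least 10 cells in each, the log2 ratio of cluster 1 to cluster 0 was 0.25, 0.45, 0.72 and 0.56 (B6→B6 2 and 3, HLA→B6 1 and 2), far below the 2.59 to 3.38 of PCs over B cells. Cluster 1 was higher in all 4 mice for 14 of 49 genes (28.6%), against 8.08% of 8926 genes, and lower for 1, Dad1 (2.04%, against 14.2%).

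Mzb1 had the highest mean log2 ratio (1.26), with 782, 1064, 1639 and 1184 CPM in cluster 1 and 486, 400, 517 and 480 CPM in cluster 0, and the clusters did not overlap. Pdia3 (257, 384, 370 and 338 against 173, 210, 192 and 194 CPM) and Ssr4 (183, 237, 332 and 210 against 112, 159, 146 and 170 CPM) were 1.75-fold and 1.64-fold higher in mean, also without overlap. Hsp90b1 was 1.76-fold higher, but B6→B6 2 hardly differed (220 against 215 CPM). Xbp1 was higher in 3 of 4 mice, at 85.6, 59.1, 240 and 165 CPM against 39.1, 62.7, 85.2 and 67.5 CPM. Sdf2l1 was also higher in 3 of 4, and Ddit3 in 1 of 4. The mean log2 ratio was lowest for Ddit3 (-1.33), which had 13 UMIs in cluster 1 in all and none in B6→B6 3, and it was also below 0 for Atf4 (-0.28), Txndc11 (-0.39), Dad1 (-0.26), Kdelr2 (-0.22) and Hyou1 (-0.21), among others. None of the 5 ERAD genes, the 4 transport genes or the sensors was higher in every mouse. Since the clusters were drawn from these counts, these are descriptions. Of the 210 cells of cluster 1, 4 carried the label PC.

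The effect of rejection was then examined within each cell type, with the mice as replicates, by edgeR's quasi-likelihood test on the summed counts and Benjamini-Hochberg adjustment over all genes tested in that type. Of 11 cell types and B cell clusters tested, alveolar macrophages were the only set in which any of the 50 genes passed an adjusted p of 0.05. There 5 of 46 genes tested were lower in HLA→B6 (10.9%) and 1 was higher (2.17%). Of all 5806 genes tested in these cells, 5.96% were lower and 6.39% higher, so the share of members that changed was not far from that of genes at large. The median log2 fold change of the 46 genes was 0.01 and that of all genes -0.02.

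The gene that rose was Ddit3, at 39.6, 33.4, 22.4, 18.9 and 17.6 CPM in the alveolar macrophages of B6→B6 1 to 5 and 52.6, 75.5 and 118 CPM in HLA→B6 1 to 3. Every HLA→B6 mouse was above every B6→B6 mouse, and the log2 fold change was 1.88 (SE 0.32, edgeR adjusted p = 0.00824). Its neighbour in the pathway, Atf4, did not differ detectably (108 ± 21.1 against 101 ± 19.8 CPM, log2 fold change 0.14, SE 0.20, edgeR adjusted p = 0.679).

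Of the 5 genes that fell, Hyou1 and Dnajb9 are in the chaperone group and Canx is a lectin chaperone. Sec61b is in the entry group and Xbp1 among the sensors and transcription factors. Hyou1, an ER chaperone of the HSP110 type, was at 42.9, 23.0, 24.4, 40.0 and 42.7 CPM in B6→B6 and 7.11, 12.8 and 2.80 CPM in HLA→B6 (log2 fold change -1.60, SE 0.38, edgeR adjusted p = 0.0233), where HLA→B6 3 rests on 1 UMI. Dnajb9 was at 214, 155, 155, 168 and 131 CPM against 91.0, 70.8 and 64.4 CPM (-0.87, SE 0.19, edgeR adjusted p = 0.0185). Canx was at 524, 551, 517, 507 and 548 CPM against 372, 257 and 241 CPM (-0.64, SE 0.16, edgeR adjusted p = 0.0281). Xbp1 was at 412, 301, 399, 402 and 407 CPM against 232, 146 and 243 CPM (-0.69, SE 0.18, edgeR adjusted p = 0.0296). Sec61b was at 538, 625, 557, 563 and 573 CPM against 366, 326 and 333 CPM (-0.52, SE 0.14, edgeR adjusted p = 0.0344). For all 5 genes the highest HLA→B6 mouse was below the lowest B6→B6 mouse. This separation, like that of Ddit3, was read on the values that gave the calls and adds no support to them. Of 8 fits that each left out 1 mouse, Ddit3 kept its call in 8, Dnajb9 in 7, Hyou1 in 6, Canx in 3 and Xbp1 in 2. Sec61b lost its call whichever mouse was left out (edgeR adjusted p = 0.0512 to 0.122), and also with no filter on low counts and under a block on the mouse number. In GRCm38 the 6 genes lie at chr10:127290774-127296288 (Ddit3, + strand), chr9:44379490-44392369 (Hyou1, +), chr12:44205559-44210326 (Dnajb9, -), chr11:50293961-50325673 (Canx, -), chr11:5520659-5525893 (Xbp1, +) and chr4:47474658-47483242 (Sec61b, +), all protein-coding, and the counts are per gene.

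**Figure D4:**
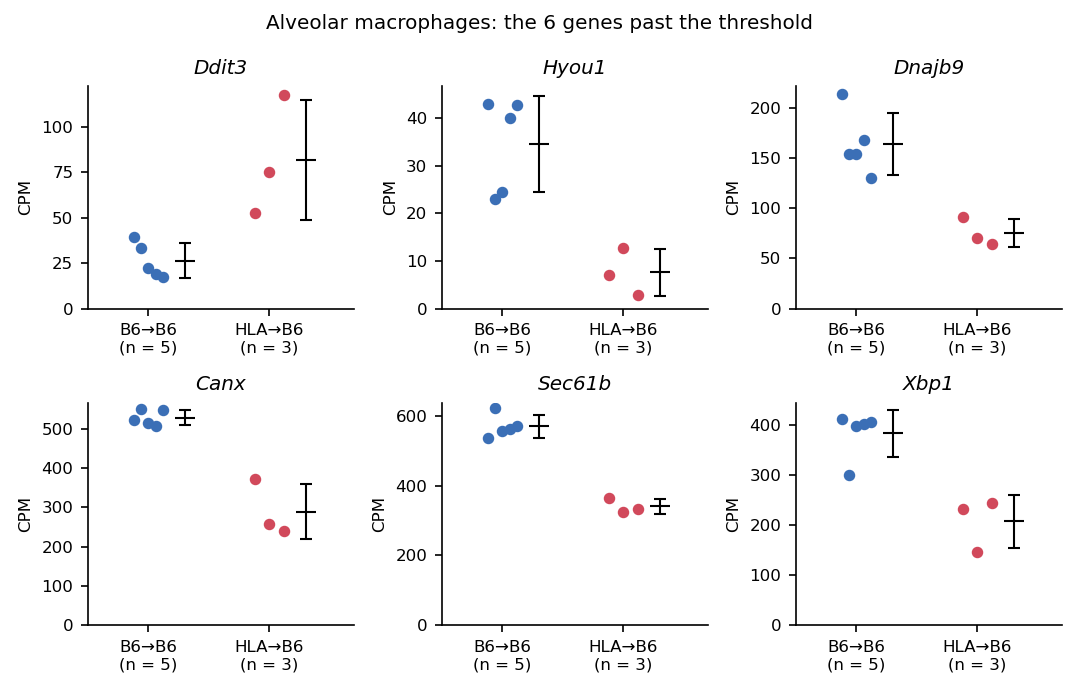
Level (CPM) of the 6 genes past the threshold in alveolar macrophages, 1 point per mouse (blue B6→B6, n = 5; red HLA→B6, n = 3), with mean and SD beside the points. The groups do not overlap in any panel, which adds no support since the genes were chosen on these values. Ddit3 is higher and the other 5 genes are lower in HLA→B6.

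Most of the chaperones and folding enzymes did not pass. Hspa5 was at 588 ± 94.6 CPM in B6→B6 and 520 ± 117 CPM in HLA→B6 (log2 fold change 0.07, SE 0.21, edgeR adjusted p = 0.864). Pdia4, Sel1l and P4hb lay just above the threshold with lower values in HLA→B6 (edgeR adjusted p = 0.0510, 0.0609 and 0.0621). Herpud1 was at 165 ± 46.9 against 96.3 ± 55.4 CPM (adjusted p = 0.234 by edgeR), and Edem1 at 117 ± 22.5 against 137 ± 8.23 CPM (adjusted p = 0.138 by edgeR). The summed level of the 50 genes was 1.05%, 1.06%, 1.07%, 0.933% and 0.949% in B6→B6 and 0.859%, 0.865% and 0.709% in HLA→B6, so the groups did not overlap. This share is on the scale of library totals, on which genes at large also fell in these cells. There the median log2 fold change was -0.21 for the members tested and -0.26 for all genes.

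The directions of small differences moved with the scaling. The edgeR scaling (TMM) set the median of all genes at -0.02, while library totals alone set it at -0.26, and on the scale of totals 12 of 46 genes tested passed, 11 of them lower, against 11.9% lower and 3.88% higher of all 5806 genes, while the 6 genes above kept their calls and directions. Markers of these cells also moved with the groups. The alveolar macrophage markers Chil3, Ear2, Siglecf, Marco and Ear1 summed to 9070 to 11305 CPM in B6→B6 and 299 to 4175 CPM in HLA→B6, with the least in HLA→B6 2, and 3 of the 5 were called lower, among them Marco (log2 fold change -3.69, edgeR adjusted p = 0.00383). The monocyte gene Ly6c2 was called higher (3.68, edgeR adjusted p = 0.0287) and reached 228 CPM in HLA→B6 2, in which the alveolar macrophage markers were nearly absent, Marco being at 4.09 CPM. Jchain was called higher too (3.66, edgeR adjusted p = 0.0236), at 0 to 18.8 CPM in B6→B6 and 24.2 to 54.5 CPM in HLA→B6. Without HLA→B6 2, 2 of the 6 genes kept their calls, Ddit3 (log2 fold change 1.86, edgeR adjusted p = 0.0226) and Hyou1 (-2.32, adjusted p = 0.0227); without B6→B6 4, Ddit3 and Dnajb9 kept theirs, and without B6→B6 1 these and Hyou1. With shared-barcode cells left out 8 genes passed, 7 of them lower, against 8.38% lower and 9.70% higher of all 5454 genes. The part of the changed markers in these differences was not tested.

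Genes of the pathway outside the 50 were read in the same fit in alveolar macrophages. Of 9 targets of the integrated stress response tested, Mthfd2, a mitochondrial folate enzyme, was higher (log2 fold change 1.06, edgeR adjusted p = 0.0425) and Phgdh, the first enzyme of serine synthesis, was lower (-2.73, adjusted p = 0.00171). Of 14 COPII and ER exit genes, Tmed10 was higher (0.55, adjusted p = 0.0320 by edgeR) and Sec31a lower (-0.79, adjusted p = 0.0344). Os9, an ERAD lectin, was higher among 11 ERAD genes (1.12, edgeR adjusted p = 0.0181), and Creb3l2, a stress transducer cleaved like ATF6, was lower among 5 transducers (-2.03, edgeR adjusted p = 0.0320). None of 17 translocon and glycosylation genes, 8 redox genes or 8 cytosolic heat shock genes passed. Among all 5806 genes tested in these cells 6.39% were called higher and 5.96% lower. The few calls here thus do not set these lists apart from genes at large.

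**Figure D5:**
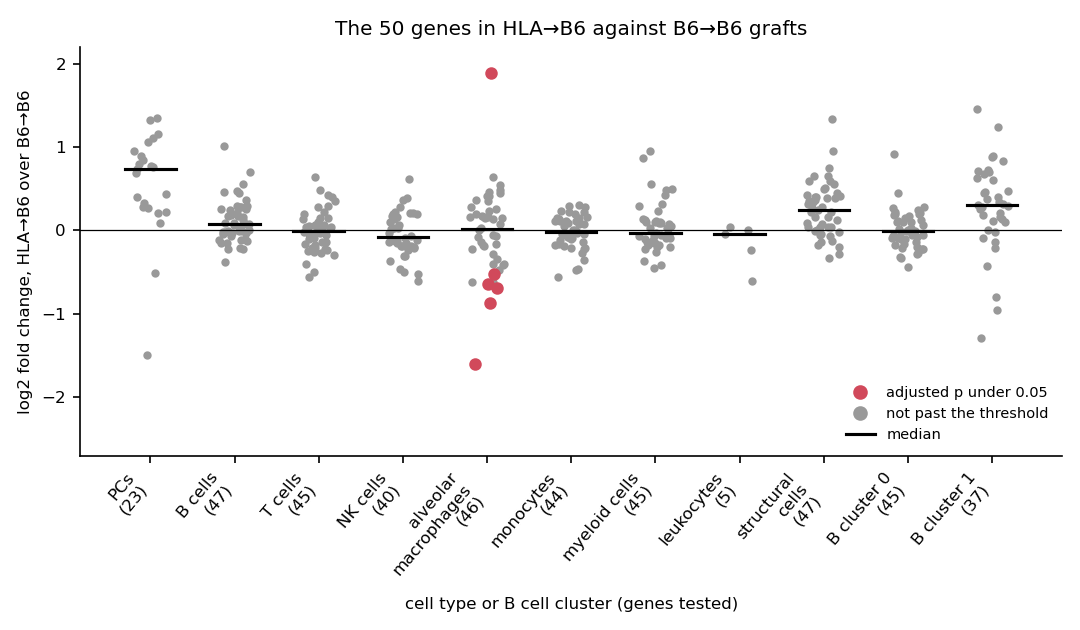
Log2 fold change (HLA→B6 over B6→B6, edgeR) of the members tested in each cell type or B cell cluster, with the number tested in brackets, a line at their median and, in red, the genes with an adjusted p under 0.05. The 6 red points are all in alveolar macrophages, and the medians of PCs (0.74), structural cells (0.25) and B cell cluster 1 (0.31) lie above 0. In PCs a gene could pass the filter on low counts through the HLA→B6 sums alone, which favours values above 0.

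In the other 10 sets edgeR called 0 of the 50 genes. DESeq2 also called 0 in 9 of them and 1, Sdf2l1, in structural cells (DESeq2 adjusted p = 0.0328). At an unadjusted p under 0.05 there were 3 of 23 members tested in PCs (3.68% of all genes tested), 3 of 47 in B cells (4.66%), 1 of 45 in T cells (7.44%), 1 of 40 in NK cells (3.25%), 0 of 44 in monocytes (5.08%), 1 of 45 in myeloid cells (4.81%) and 0 of 5 in leukocytes (4.91%). In structural cells there were 9 of 47 (8.32% of all genes tested), and in B cell clusters 0 and 1 there were 0 of 45 (3.17%) and 7 of 37 (10.1%). Few other genes passed there either: of all genes tested, 0.407% were called higher and 0.210% lower in structural cells, 0.182% higher in B cell cluster 1, 0.0698% higher in T cells and 0.0230% lower in monocytes, and none in the remaining 6 sets. Mast cells were not tested, since only 2 B6→B6 mice and 1 HLA→B6 mouse had enough of them.

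In structural cells the 9 genes with an unadjusted p under 0.05 were all higher in HLA→B6, as were 4.43% of all 8102 genes tested at that p, and 36 of 47 log2 fold changes were positive (median 0.25, all genes -0.01). Sdf2l1 came closest, at 60.8, 50.1, 37.5, 26.3 and 5.44 CPM in B6→B6 and 100, 138 and 29.5 CPM in HLA→B6 (log2 fold change 1.34, SE 0.30, edgeR adjusted p = 0.0859), with HLA→B6 3 inside the range of the controls. That mouse and B6→B6 5 had the most hemoglobin (409331 and 524858 CPM). The mix of clusters also differed between mice. Cluster 0 held 204 of 323, 39 of 134, 336 of 744, 71 of 1137 and 18 of 103 structural cells in B6→B6 1 to 5. In HLA→B6 1 to 3 it held 1225 of 1998, 375 of 696 and 96 of 379. The part of this mix in the values of all structural cells was not tested. The dissociation-induced transcripts were at 6375, 2270, 2498, 2889 and 555 CPM in B6→B6 and 1680, 1432 and 628 CPM in HLA→B6, overlapping because of B6→B6 5, and Egr1 was called lower (log2 fold change -3.04, edgeR adjusted p = 0.0367). Within structural cluster 0, the MHC II+ endothelial cells, Sdf2l1 was at 49.6, 66.3, 29.9, 62.8 and 0 CPM in B6→B6 and 118, 149 and 98.6 CPM in HLA→B6, without overlap (log2 fold change 1.59, SE 0.34, edgeR adjusted p = 0.0268). It was the only one of 41 members tested to pass there, where 0.576% of 3644 genes were called higher and 0.0823% lower. Sdf2l1 lies at chr16:17130138-17132383 (- strand). Without HLA→B6 2 its adjusted p was 0.577 (log2 fold change 1.39), without HLA→B6 1 it was 0.189, without B6→B6 1 or 3 it was 0.0802 or 0.179, and DESeq2 gave 0.101, so the call rested on these mice. The other members with an unadjusted p under 0.05 in this cluster were Hsp90b1, Creld2, Manf, Dnajb11, Canx, Pdia3, Pdia6, Sec61b and Ostc, which with Sdf2l1 made 10 of 41, against 7.68% of all 3644 genes. Of the 41 log2 fold changes 32 were positive (median 0.29, all genes -0.0045). Jchain, a marker of PCs, was at 0 in cluster 0 of all B6→B6 mice and at 44.9, 19.8 and 49.3 CPM in HLA→B6 1 to 3. The dissociation-induced transcripts were at 1609 to 7811 CPM in this cluster in B6→B6 and 1576 to 2111 CPM in HLA→B6. The part of these transcripts and of Jchain in the values of Sdf2l1 was not tested.

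In PCs the test had little depth, with 163 genes in all and 23 members passing the filter on low counts. A gene could pass that filter through both HLA→B6 sums alone, whatever its level in the shallow B6→B6 sums. Of the 23 members, 21 had positive log2 fold changes (median 0.74, all 163 genes 0.02), with SEs around 0.58. Since the filter favours genes high in HLA→B6, that count is no support for a rise. Pdia4 (551, 1344 and 1183 against 2840 and 2702 CPM) and Calr (1103, 621 and 394 against 1779 and 1552 CPM) were higher in both HLA→B6 mice than in the 3 B6→B6 mice, and Txndc5 (2205, 2172 and 5323 against 1320 and 1295 CPM) was lower. None of these differences passed (edgeR adjusted p = 0.792 for each). A change of the size of the median was not detectable at this depth. In B cell cluster 1, with 2 mice a group, Xbp1 was at 85.6 and 59.1 CPM in B6→B6 and 240 and 165 CPM in HLA→B6 (log2 fold change 1.45, SE 0.44, edgeR adjusted p = 0.266). Without HLA→B6 2 it passed (1.73, edgeR adjusted p = 0.0217), with HLA→B6 1 then the only mouse of its group and assumed to vary like the others. Mzb1 was at 782 and 1064 against 1639 and 1184 CPM there (0.62, SE 0.24, adjusted p = 0.408 by edgeR). Jchain rose in the same cells of cluster 1, from 0 in both B6→B6 mice to 862 and 293 CPM (log2 fold change 9.51, edgeR adjusted p = 0.0198), and its part in the values of Xbp1 and Mzb1 was not tested.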

How the data were processed

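The authors sequenced droplet libraries of dissociated left lung grafts from 8 mice and made UMI counts per gene and cell against mm10 (GRCm38) with Cell Ranger and Seurat, as the submitters' processing notes and the study's methods say; versions are not given in the sources used here. Barcodes under 200 UMIs and genes in fewer than 3 cells were removed. The methods also describe removal of free RNA with SoupX, using hemoglobin genes among others, but whether the deposited counts come before or after that step is not stated. The deposited values are whole-number counts, unnormalized, with a table giving each cell its mouse, type and cluster. HLA→B6 mice are numbered as in that table and the sample titles, since the cell names number them differently.

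The 50 genes, the other gene lists and the tests were chosen with earlier results of these data known. Counts were summed per mouse and type (at least 10 cells, at least 5 for PCs), without 99 Ig genes. HLA→B6 was compared with B6→B6 by edgeR 4.0.16 (R 4.3.3): TMM scaling, filterByExpr with a count minimum of 10, the quasi-likelihood F test, and Benjamini-Hochberg adjustment over all genes of the type, with a threshold of 0.05. Differences between the effects in 2 types were tested in limma 3.58.1 (voom, with the mouse as a block). PCs and B cells, and B cell clusters, were compared within mice as log2 ratios with a prior count of 0.5, described without a test. Tests were checked on simulated counts. Doublets were marked with Scrublet in scanpy 1.11.5 (256 cells, 1.23%) and left out only as an alternative. Other alternatives were DESeq2 1.42.0, RLE factors, no filter on low counts, Ig genes kept, at least 20 cells, at least 500 UMIs, shared-barcode cells left out, the libraries linked by shared barcodes as a term, a block on the mouse number and leaving out each mouse. Library totals in place of TMM, Jchain left out, the settings for Sdf2l1 in structural cluster 0, and PCs left out of the limma fit were added after seeing the data.

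Total UMIs ran from 1669076 to 12445769 per mouse. A floor of 3 counts, the most that a count of 0 allows at 95% confidence, covers counting error only. Mouse numbers did not pair the mice: deviations of same-numbered alveolar macrophage sums from their group means correlated at -0.017, 0.308 and -0.249. The text names a fixed set of 16 genes, the highest and lowest ratio in each functional group, and members past the threshold; other members are named after their values were seen. Gene positions are from GENCODE vM21, in which 17711 of 17921 names matched, and promoter windows are RefSeq's (GRCm38.p6). Protein sequences were not analysed here.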

Additional observations from a re-analysis of the deposited data

Results flagged for a closer look

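In T cells, the 50 genes took 0.461% of non-Ig UMIs in B6→B6 5, below the 0.551% to 0.579% of the other 4 B6→B6 mice by a gap that Dixon's test at 95% marks. In leukocytes, B6→B6 4 stood above its group in the same way (0.355% against 0.255% to 0.281%). In alveolar macrophages, Xbp1 was at 301 CPM in B6→B6 2, below the 399 to 412 CPM of the other 4, and still above every HLA→B6 mouse. Of 15 groups examined in this way 3 were marked, and chance marks about 1 in 20 groups.

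For the 6 genes called in alveolar macrophages, the log2 fold change there was set against that in each other type, giving 48 differences, of which 8 passed an adjusted p of 0.05 (limma). The 6 genes were chosen because they changed in alveolar macrophages, which favours differences of the same sign, so a difference is no separate support for the change itself. Canx differed by -2.77 from leukocytes (limma adjusted p = 0.000937) and by -1.28 from structural cells (limma adjusted p = 0.00383). The difference from leukocytes rests on a fitted rise of Canx of 2.12 in those shallow sums. Canx averaged 48.8 CPM there, while 3 UMIs equal 187 and 192 CPM in B6→B6 1 and 5. Among the 5 members that edgeR tested in leukocytes, no log2 fold change was above 0.04. Hyou1 differed by -2.40 from T cells (limma adjusted p = 0.0351) and by -2.77 from structural cells (limma adjusted p = 0.00961). With library totals in place of TMM 3 of these 4 passed, without Hyou1 against T cells, and with PCs left out of the fit all 4 passed and 6 of 42 in all. For Ddit3 no difference passed, the smallest limma adjusted p being 0.0518, against NK cells, but its difference from T cells passed with PCs left out (1.84, limma adjusted p = 0.0457) and that from PCs with library totals (2.50, limma adjusted p = 0.0351).

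The 4 differences against PCs rest on how that joint fit scaled the shallow PC sums. Dnajb9 differed by -3.74 (limma adjusted p = 0.000207), Canx by -2.74 (adjusted p = 0.000681), Sec61b by -2.97 (adjusted p = 4.1e-05) and Xbp1 by -3.11 (adjusted p = 0.000159). In that fit the TMM factors were 5.26, 2.04 and 3.02 for the PC sums of B6→B6 1 to 3 and 0.854 and 1.06 for HLA→B6 1 and 2, and the fitted changes in PCs were 2.45 for Sec61b and 2.36 for Xbp1. The edgeR fit on PCs alone gave 0.77 and 0.44 for these genes (adjusted p = 0.792 and 0.899 by edgeR). With library totals the differences were -2.33 for Dnajb9 (limma adjusted p = 0.0151), -1.28 for Canx (adjusted p = 0.125), -1.54 for Sec61b (adjusted p = 0.0156) and -1.62 for Xbp1 (adjusted p = 0.0280), so their size is not settled here. These alternatives were added after seeing the data.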

How the results depend on the processing

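In alveolar macrophages, where 6 genes were called, 12 were called with library totals in place of TMM and 12 with the linked libraries as a term. With totals, 11.9% of all 5806 genes were called lower and 3.88% higher. In the linked fit Sdf2l1, Spcs2, Edem1 and Ddit3 were higher and the others lower. The share of all genes was not counted for the linked fit, so its count cannot be set against genes at large. The fit with the replicate block called 1, Dnajb9, although the mouse numbers do not pair the mice. Leaving out 1 mouse gave 2 to 5 calls, with 2 without B6→B6 4, 2 without HLA→B6 2 and 3 without B6→B6 1. Ddit3 kept its call in each of these leave-one-out fits but not under the block (adjusted p = 0.0516). None of the 6 genes changed direction under any alternative run. In structural cells 1 gene, Sdf2l1, was called, against 0, with DESeq2, with no filter on low counts, with the linked libraries as a term and in structural cluster 0 alone, and ranged from 0 to 1 on leaving out a mouse (1, Sdf2l1, without HLA→B6 3). In myeloid cells 1, Mzb1, was called with no filter, and in B cell cluster 1 the range was 0 to 1 (1, Xbp1, without HLA→B6 2). The PC markers, Mzb1 among them, summed to between 78.3 and 1956 CPM in myeloid cells over 8 mice, and Ig reached 2.59% of UMIs in HLA→B6 1. The part of PC transcripts in the call of Mzb1 in myeloid cells was not tested. The other 91 counts for cell types and 21 for B cell clusters stayed within 1.5 times the reported one. The log2 ratio of the summed share between PCs and B cells, 2.95, became 1.41 with Ig genes kept in the total and 3.39 with cells of all mice pooled, and ran from 2.84 to 3.04 on leaving out a mouse. The differences of the summed share between groups moved by less than 1 SD throughout, but some changed sign on leaving out a mouse. In percentage points they ran from -0.148 to 0.133 in myeloid cells and from -0.072 to 0.0087 in NK cells. In B cells the range was -0.016 to 0.058, and in B cell cluster 0 -0.043 to 0.010. The other sets kept their sign, with 0.020 to 0.325 in structural cells and -0.229 to -0.150 in alveolar macrophages. PCs in B6→B6 grafts are the shallowest sums and limit every statement on PCs between groups.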
